A study of Saccharomyces cerevisiae with 30 samples.

Results

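The genes described here encode 60 proteins that assemble the large (60S) ribosomal subunit of budding yeast, Saccharomyces cerevisiae. They were chosen by name, as factors of 60S assembly, with earlier results of these data known. All 60 were found by symbol in the authors' deposited comparison table for time point 2, joined by gene identifier to the count table of 7127 features, and all 60 passed the filter on low counts, which kept 6256 genes. Messenger RNA was sequenced in 30 libraries from 2 strains of the CEN.PK122-alpha background. The wild type (labelled wt, here WT) gave 15, and a strain labelled as the YEATS-domain pocket mutant yaf9W89A (here W89A) gave 15. Both strains grew in a chemostat fed with low-glucose medium, where a culture goes through the yeast metabolic cycle, a synchronous oscillation of oxygen use and gene expression. Each strain was sampled at 5 time points in each of 3 consecutive cycles, so that each of 10 groups held 3 libraries. Yaf9 belongs to both SWR1, which deposits the histone variant H2A.Z, and the histone acetyltransferase NuA4, and its YEATS domain is the part that reads acylated histone tails. A single substitution of this kind cannot be checked in gene counts. No label tells of more than 1 culture or clone of each strain, so a difference between strains cannot be told apart from a difference between cultures, and p-values measure spread between cycles.

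The 60S subunit is built in the nucleolus around a long ribosomal RNA precursor. RNA helicases, GTPases, methyltransferases and scaffold proteins bind the precursor in a fixed order, help it fold and be cut, and are released before the particle leaves the nucleus. Late in the nucleus, placeholder proteins hold the sites of ribosomal proteins and the huge ATPase Mdn1 strips off remaining factors. In yeast the genes of these factors form part of a large set, the ribosome biogenesis genes, that is transcribed together when growth is fast. Many of their promoters carry a pair of short motifs called PAC and RRPE.

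Before the results, 4 features of the libraries bear on them. Of the W89A libraries of cycle 1, those of time points 4 and 5 were placed as in the authors' deposited comparison tables, which is the reverse of the number order of their titles. Library totals ran from 16540627 to 20260295 counts, and the members together took 18781 to 297364 counts of a library. The W89A library of time point 3 in cycle 3 stood apart: all 60 members were higher in it than in the other 2 cycles, by a median of 2.26-fold over their mean. The W89A library of time point 4 in cycle 3 was the highest of its group for 53 members (median 1.77-fold), the WT library of cycle 2 at time point 3 for 58 (1.41-fold) and that of cycle 1 at time point 1 for 57 (1.22-fold). These counts were made for the members only, so whether other genes were also highest in these libraries is not given. The main results at time point 3 are therefore also given without the W89A library of cycle 3. Class medians at that time point, and fold changes given only once, include that library. Each gene had 1 estimate of spread for all 10 groups, so that library also entered the tests at the other time points.

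The upstream sequence of the members is described before their levels. Over the 250 bases before the annotated start, which in this yeast annotation is the start codon, 53 of 60 members (88.3%) held GATGAG, the core of the PAC motif, on either strand. Of all 6001 protein-coding genes, 17% did. AAAAATTTT, the core of the RRPE motif, stood in 41 members (68.3%) and in 6.73% of all genes, and both motifs in 36 members (60%) and in 3.35% of all genes. A run of AAAAATTTTT matches the RRPE core on both strands with an overlap, and was counted as 1 promoter with the motif. The nearest PAC core began 53 to 222 bases before the start codon (median 116), and the nearest RRPE core at a median of 139. The 2 members with neither were MAK11 and RSA1.

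A 140-base stretch, from base 230 to base 91 before the start codon, is printed for the 3 members with the largest range of level over the WT cycle (DBP2, MAK16 and NOG2), the 2 with the smallest (RSA1 and SSF2), and SSF1, the close paralog of SSF2. The sequences are those of the RefSeq R64 assembly, 5′ to 3′ on the strand of the gene, and capitals mark the PAC core (GATGAG, or CTCATC on the other strand) and the RRPE core (AAAAATTTT, or AAAATTTTT on the other strand). DBP2 lies on the plus strand (chrXIV:413409-413548), MAK16 on the minus strand (chrI:101236-101375), NOG2 on the minus strand (chrXIV:723203-723342), and SSF1 (chrVIII:229105-229244), SSF2 (chrIV:1087351-1087490) and RSA1 (chrXVI:181173-181312) on the plus strand.
DBP2: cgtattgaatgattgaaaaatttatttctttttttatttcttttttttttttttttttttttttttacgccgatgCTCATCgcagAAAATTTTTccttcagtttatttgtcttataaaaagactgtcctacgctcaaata
MAK16: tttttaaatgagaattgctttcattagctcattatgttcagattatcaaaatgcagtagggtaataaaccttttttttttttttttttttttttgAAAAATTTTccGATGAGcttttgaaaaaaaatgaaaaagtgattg
NOG2: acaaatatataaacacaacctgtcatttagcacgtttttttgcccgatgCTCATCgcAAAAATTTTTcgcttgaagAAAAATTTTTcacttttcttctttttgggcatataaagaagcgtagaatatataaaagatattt
SSF1: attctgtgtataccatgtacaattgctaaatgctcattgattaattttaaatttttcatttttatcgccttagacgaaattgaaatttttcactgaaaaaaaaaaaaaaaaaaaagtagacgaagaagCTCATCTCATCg
SSF2: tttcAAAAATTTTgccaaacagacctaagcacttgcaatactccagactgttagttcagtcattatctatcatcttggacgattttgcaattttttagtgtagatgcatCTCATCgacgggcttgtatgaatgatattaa
RSA1: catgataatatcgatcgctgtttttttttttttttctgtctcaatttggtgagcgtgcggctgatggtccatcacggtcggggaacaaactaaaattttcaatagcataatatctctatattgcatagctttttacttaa

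In DBP2, MAK16 and NOG2 the motifs stood close together: PAC began 155, 124 and 181 bases before the start codon and the nearest RRPE core 145, 135 and 153. SSF2 also held both, but far apart, at 121 and 226. SSF1 held overlapping copies of the PAC core, the nearest at 97, and no exact RRPE core. RSA1 held neither. Over all members, those with both motifs had a median WT range of 4.08 on the log2 scale (1.73 to 6.12, 36 members), those with PAC only 3.16 (2.12 to 4.64, 17), those with RRPE only 4.36 (2.77 to 4.67, 5), and MAK11 and RSA1 had 2.70 and 1.27. A match is a description of letters and not of a bound site.

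In WT the members rose and fell as a block. Their summed share of all counts was 1.21 to 1.36% at time point 1 and 1.47 to 1.51% at time point 2, dropped to 0.183 to 0.272% at time point 3 and 0.132 to 0.141% at time point 4, and stood at 0.259 to 0.274% at time point 5. All 60 members changed over the WT cycle (edgeR quasi-likelihood F test, Benjamini-Hochberg adjusted p under 0.05), as did 81.5% of all genes tested. The fitted level was highest at time point 2 for 58 members, against 29.8% of all genes, and at time point 1 for RSA1 and DBP6. It was lowest at time point 4 for 58 members, as for 2039 of all 6256 genes, and at time point 3 for RSA1 and LOC1. These exceptions were close: mean CPM at time points 1 and 2 was 56.3 and 55.5 for RSA1 and 65.8 and 65.4 for DBP6. LOC1 had a mean of 34.6 CPM at time point 3 and 36.7 at time point 4, with overlapping libraries. The median range between the highest and the lowest time point was 3.94 on the log2 scale, or 15.4-fold, where the median of all genes was 2.07-fold. In these bulk samples less RNA per cell cannot be told apart from fewer cells that make the RNA.

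**Figure D1:**
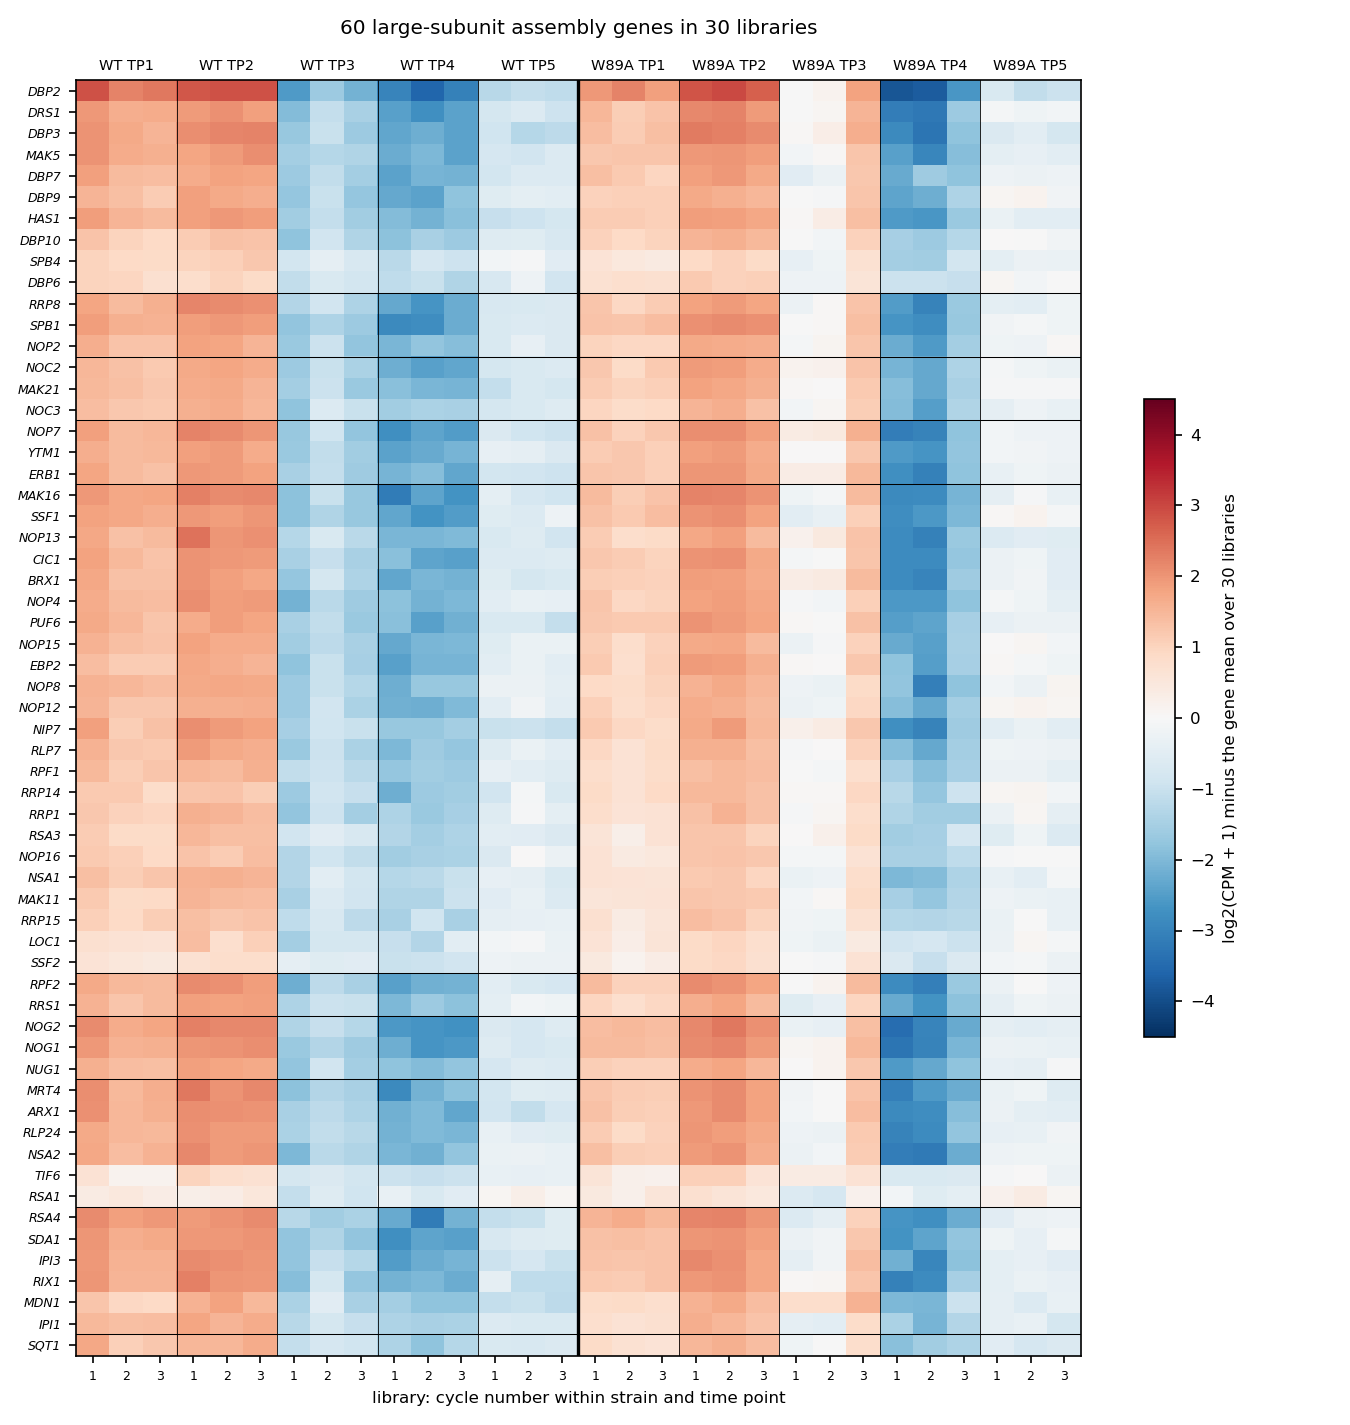
Level of each of the 60 members (rows, grouped by role) in each of the 30 libraries (columns), as log2(CPM + 1) minus the mean of the gene over all libraries; CPM is the count scaled to the normalized library size. WT levels drop between time points 2 and 3, and among the W89A libraries of time point 3 that of cycle 3 is the highest for all 60 members.

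The largest range was that of DBP2, an RNA helicase gene with an intron on chromosome XIV, which reached 69.6-fold. Its WT libraries held 945.4, 1010 and 1010 CPM at time point 2, 22.5, 43.3 and 30.5 at time point 3 and 16.4, 10.5 and 15.7 at time point 4, in the order of cycles 1, 2 and 3. MAK16, whose product binds early 60S precursors, followed with 32.9-fold, NOG2, a GTPase gene, with 31.8-fold and RSA4, whose product is a target of Mdn1, with 28.8-fold. NOG2 hosts the small nucleolar RNA gene SNR191 in its intron on the same strand (274 bases), so reads of this RNA may be counted in it, depending on how exons were used. In all, 48 members spanned at least 8-fold and 29 at least 16-fold. The share of all genes past these limits was not computed.

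At the other end stood RSA1, SSF2, TIF6 and DBP6. RSA1, known for a role in assembling small nucleolar ribonucleoproteins, spanned 2.41-fold. Its WT libraries held 51.8, 53.6 and 61.0 CPM at time point 2 and 19.6, 28.2 and 22.2 at time point 3, then 33.4, 26.3 and 29.96 at time point 4. Its fitted minimum was at time point 3, though the libraries of time points 3 and 4 overlapped. SSF2 spanned 3.33-fold, TIF6 3.50-fold and DBP6 4.36-fold. TIF6 encodes a factor that keeps the subunits from joining too early, and it had by far the highest level per length: a mean over all libraries of 846.9 RPKM (CPM per kilobase of exon), against 65.8 for the median member and 236.8 for RLP24, the next. MDN1, a gene of 14733 bases, had the lowest, 11.1 RPKM.

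SSF1 and SSF2 encode functionally redundant pre-rRNA processing factors, and their coding sequences of 1362 bases were 92.1% identical. The longest identical stretch was 92 bases, so some reads may have been assigned to either gene. Even so, their cycles differed in size. SSF1 fell from 166.0, 157.3 and 169.7 CPM at time point 2 to 11.1, 16.03 and 12.2 at time point 3 in WT, a log2 change of -3.65 (SE 0.29). SSF2 fell from 76.4, 82.2 and 81.0 to 35.2, 32.0 and 32.3, a log2 change of -1.27 (SE 0.14). SSF1 was the higher of the pair in every WT library of time point 2, and SSF2 in every WT library of time point 3, on equal coding lengths.

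The members also kept a common shape. The correlation of each member's log2 level over the 30 libraries with the mean of the other 59 had a median of 0.992. It was lowest for RSA1 (0.778), TIF6 (0.94) and LOC1 (0.942). These are descriptions over libraries that share the cycle.

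In W89A the cycle of the members was as large as in WT. All 60 changed over the W89A cycle (75.5% of all genes did). All 60 were highest at time point 2 (30.4% of all genes) and lowest at time point 4 (2279 of all 6256 genes). The median range was 3.97 on the log2 scale, from 0.98 for RSA1 to 6.21 for DBP2. Ranges in the 2 strains followed each other across members (Pearson r = 0.972 over 60 members, a description), and 32 members had the larger range in W89A. At time point 2 the strains did not differ detectably: 0 of 60 members passed edgeR's test, 0 had an unadjusted p under 0.05 and 0 passed with DESeq2. Of all genes, 13.1% passed edgeR's test and 28% had such an unadjusted p. The authors' deposited table called 3 members lower at this time point, and 5.53% of all its genes. The median log2 fold change of W89A against WT was -0.06, with members from -0.50 to 0.28.

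The strains parted at time point 3. All 60 members were higher in W89A (edgeR, adjusted p under 0.05), where 28.2% of all genes were. The median log2 fold change was 1.86, against 0.08 over all genes, and members ran from 0.55 (RSA1) to 3.01 (DBP2). For 56 members the difference was at least 2-fold, which 10.5% of all genes reached. The members took 0.467, 0.470 and 0.971% of W89A counts in cycles 1, 2 and 3 at this time point, against 0.183, 0.272 and 0.211% in WT. The 3 W89A libraries were all above the 3 WT libraries for 59 members, all but RSA1, as for 32.5% of all genes.

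**Figure D2:**
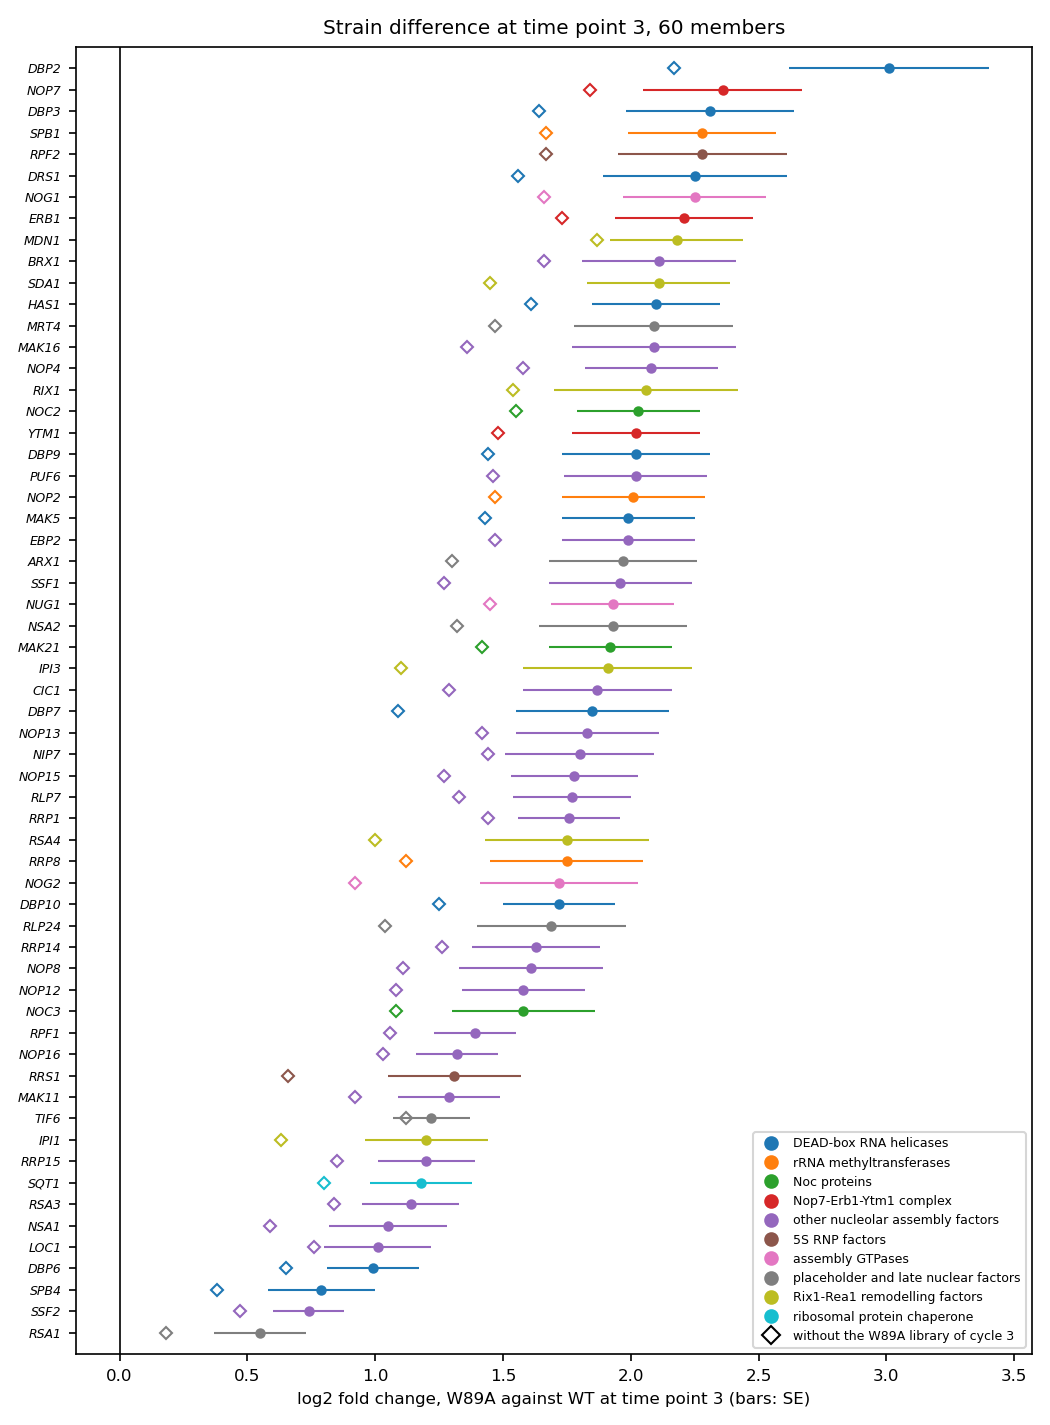
Log2 fold change of W89A against WT at time point 3 for each member (filled circles, colour by role; bars are the standard error of the fit, 3 libraries a group) and the same value without the W89A library of cycle 3 (open diamonds). All filled circles lie above 0, from 0.55 for RSA1 to 3.01 for DBP2, and the diamonds lie lower, from 0.18 to 2.17.

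Without the W89A library of cycle 3, 58 members were still higher, at a median of 1.31, where 23.8% of all genes were. RSA1 (log2 fold change 0.18, adjusted p = 0.342, edgeR) and SPB4 (0.38, adjusted p = 0.0886) no longer passed, and DBP2 came to 2.17. For 19 members the difference moved by over 1.5 times without this library. Of those named here, DBP3 then came to 1.64 on the log2 scale, SPB1 and RPF2 to 1.67 each, NOG1 to 1.66, NSA2 to 1.32, SSF1 to 1.27, MAK16 to 1.36, NOG2 to 0.92 and RSA4 to 1. Among the others, NOP7 came to 1.84, MDN1 to 1.87, NOP2 to 1.47, MAK21 to 1.42 and SQT1 to 0.8. RSA1 also did not pass without the WT library of cycle 1 (0.44, adjusted p = 0.077).

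All 10 DEAD-box RNA helicases, which remodel the precursor RNA, were higher at time point 3, at a median of 2.0. DBP2 in W89A held 135.7, 152.3 and 485.6 CPM, which was 8.04-fold above WT on the fit (SE 0.39 on the log2 scale, edgeR adjusted p = 1.21e-06). None of its W89A libraries overlapped the WT range of 22.5 to 43.3. DBP3 rose from 22.9, 37.2 and 23.9 CPM in WT to 79.9, 94.5 and 241.4 in W89A (4.95-fold). The smallest differences were those of SPB4 (1.72-fold), DBP6 (1.99-fold, from 15.8, 21.4 and 19.4 CPM to 29.5, 29.9 and 53.2) and DBP10 (3.30-fold).

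The 3 rRNA methyltransferase genes were higher by a median of 2.01. SPB1, which modifies the catalytic centre of the subunit, stood at 54.3, 56.7 and 143.2 CPM in W89A and at 15.3, 20.33 and 16.9 in WT (4.84-fold, adjusted p = 9.87e-07, edgeR). NOP2, the gene of a cytosine methyltransferase of the same rRNA, was 4.03-fold higher. Among the 3 Noc proteins, which escort the precursor through the nucleolus, MAK21 was 3.78-fold and NOC2 4.09-fold higher.

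The Nop7-Erb1-Ytm1 complex, which is needed to remove the first internal spacer, was higher in all 3 members at a median of 2.21. NOP7 held 141.3, 147.6 and 334.6 CPM in W89A against 32.8, 57.7 and 30.9 in WT (log2 fold change 2.36, SE 0.31, edgeR adjusted p = 1.71e-06). The 23 other nucleolar factors were all higher, at a median of 1.76, from SSF2 (0.74) to 2.11. In this class MAK16 was 4.25-fold higher, RLP7 3.42-fold, RPF1 2.63-fold and NOP16 2.50-fold. SSF1 was 3.90-fold and SSF2 1.67-fold higher: SSF1 held 30.1, 33.1 and 89.9 CPM and SSF2 46.4, 45.0 and 74.8 in W89A. For both, every W89A library was above every WT library.

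Both 5S ribonucleoprotein factors were higher, RPF2 by 2.28 (SE 0.33). The 3 GTPase genes were higher at a median of 1.93. NOG1, whose product blocks the exit tunnel during assembly, held 188.6, 196.7 and 484.2 CPM in W89A and 54.5, 71.0 and 57.2 in WT (4.76-fold, adjusted p = 7.54e-07, edgeR). NOG2 held 54.8, 52.3 and 173.9 against 25.8, 32.4 and 26.9 (3.30-fold), and 0.92 on the log2 scale without the cycle 3 library.

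The 6 placeholder and late nuclear factors were higher at a median of 1.81 and ran from 0.55 (RSA1) to 2.09. NSA2, needed to process the second internal spacer, was 3.80-fold higher. TIF6 held 727.1, 725.1 and 882.3 CPM in W89A against 325.1, 360.6 and 316.1 in WT (2.33-fold, adjusted p = 3.85e-07, edgeR), and its W89A cycles differed little from each other. RSA1 held 27.9, 25.1 and 49.2 against 19.6, 28.2 and 22.2, with cycles 1 and 2 inside the WT range (1.46-fold, adjusted p = 0.0131, edgeR).

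The 6 genes of the Rix1-Rea1 group, whose products remodel the particle before export, were higher at a median of 1.98. MDN1 (also called REA1) held 199.7, 197.6 and 343.3 CPM against 41.9, 80.3 and 40.9 in WT (4.54-fold, adjusted p = 4.57e-07, edgeR). RSA4 was 3.37-fold higher. SQT1, whose product is a dedicated chaperone of the ribosomal protein Rpl10, was 2.26-fold higher.

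**Figure D3:**
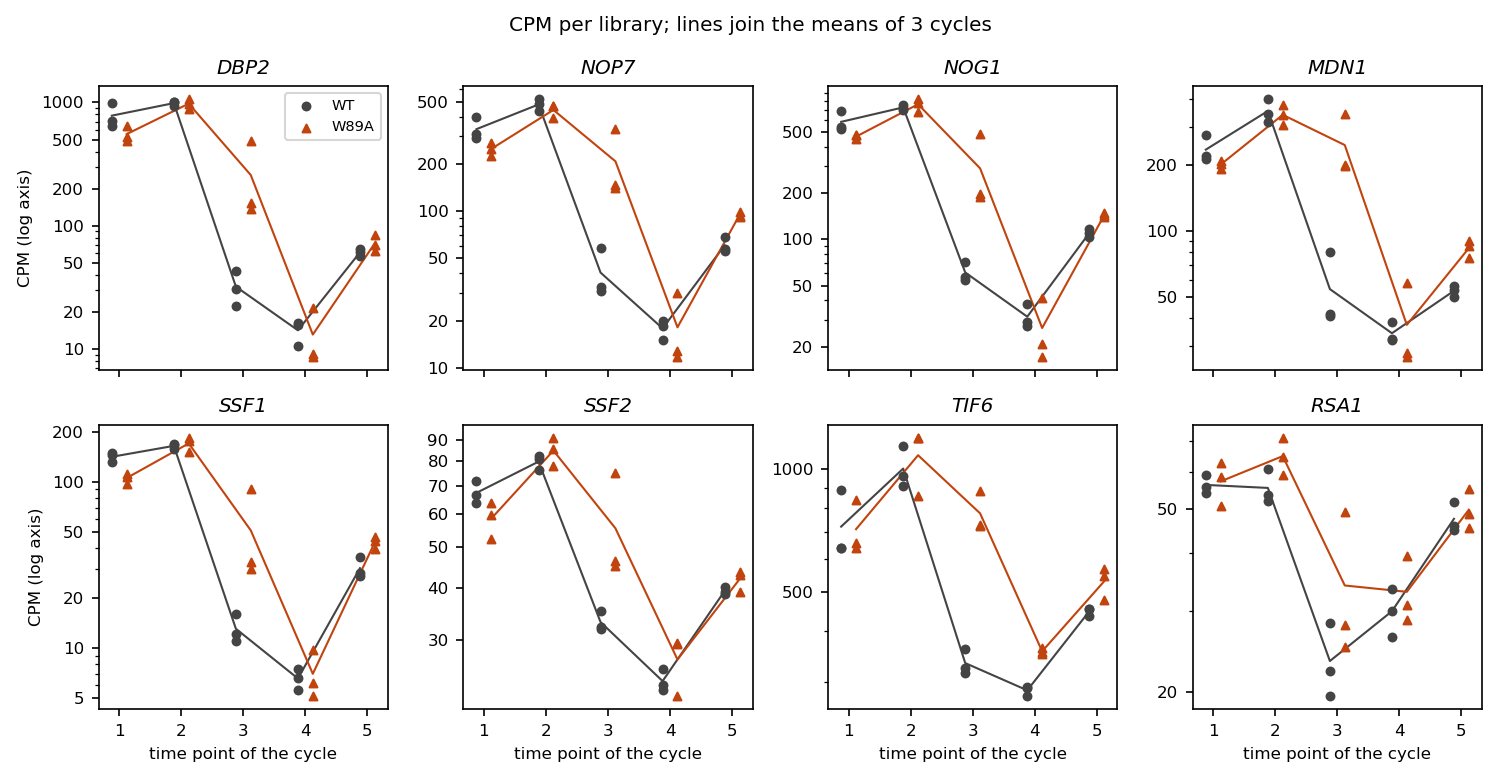
CPM in every library of 8 members (circles WT, triangles W89A; log axes that differ between panels; lines join the means of 3 cycles) over the 5 time points. DBP2, NOP7, NOG1, MDN1, SSF1, SSF2 and TIF6 are higher in all W89A libraries of time point 3 than in any WT library of that time point, and RSA1 is not.

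Within each strain, the members fell less far from time point 2 to 3 in W89A than in WT. In WT all 60 fell between these time points (31.1% of all genes did), by a median log2 change of -3.17, to a median of 11.1% of the level at time point 2. In W89A 59 fell (16.6% of all genes did), by a median of -1.24, to 42.2%. The member that did not pass was MDN1, with a log2 change of -0.46 (SE 0.25, adjusted p = 0.18, edgeR) after -2.70 in WT. Without the W89A library of cycle 3 the falls in W89A were larger, from -0.56 for TIF6 to -2.75 for DBP2, with MDN1 at -0.76. The test of the difference between the strains in this step passed for 59 members, with a median of 1.91 on the log2 scale, where 19.1% of all genes differed in this direction. RSA1 did not pass (0.32, SE 0.25, adjusted p = 0.35, edgeR). Without the W89A library of cycle 3 the test passed for 56 members, where 15.2% of all genes passed. The differences then ran from -0.04 (RSA1) to 2.18 (DBP2), against 0.32 to 3.02 with that library. SSF2 (0.38, adjusted p = 0.0584, edgeR), SPB4 (0.56, adjusted p = 0.0766) and DBP6 (0.44, adjusted p = 0.106) were then also not past the threshold.

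**Figure D4:**
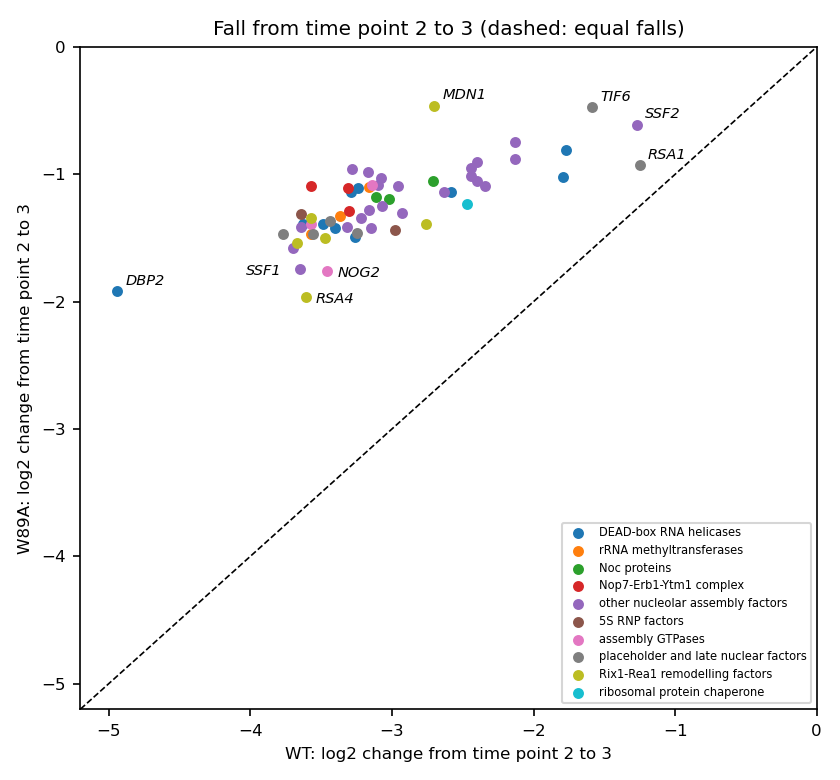
Log2 change from time point 2 to time point 3 in WT (x axis) and in W89A (y axis) for the 60 members, coloured by role; the dashed line marks equal falls. All 60 points lie above the line, with DBP2 farthest left and RSA1 closest to the line.

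Members with a larger fall in WT had a larger fall in W89A (r = 0.773 over 60 members, and 0.759 without RSA1 and DBP2, a description across genes of the same libraries). MDN1 and TIF6 kept the most in W89A, with fitted changes of -0.46 and -0.47, and RSA4 (-1.96) and DBP2 (-1.92) kept the least. Without the W89A library of cycle 3 these were -0.76, -0.56, -2.70 and -2.75. The fit with all libraries is meant below. By that fit MDN1 had lost 2.70 and TIF6 1.59 on the log2 scale in WT.

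W89A at time point 3 was nevertheless below WT at time point 2 for 59 members (edgeR; 22.8% of all genes were lower), at a median of -1.29. MDN1 did not pass (-0.52, SE 0.25, adjusted p = 0.0981, edgeR). Without the W89A library of cycle 3, MDN1 stood at -0.82. Its W89A library of cycle 3, at 343.3 CPM, lay within the WT libraries of time point 2, at 343.7, 400.9 and 314.9. For the other 59 members every W89A library was below every WT library of time point 2, as for 26.1% of all genes. As a share of the WT mean at time point 2, the median member stood at 28.3, 28.9 and 64.9% in W89A cycles 1, 2 and 3, and at 8.99, 13.9 and 9.79% in WT at time point 3.

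From time point 3 to 4 the W89A levels fell further: the ratio of the mean CPM had a median of 0.152 in W89A and of 0.596 in WT. This step was not tested, and no value over all genes was computed. The W89A means include the libraries of cycle 3, which were high at both time points. At time point 4, of the members 0 were higher and 1 was lower in W89A (edgeR; 10.9% and 10.5% of all genes were), 5 had an unadjusted p under 0.05 (35.2% of all genes did), and DESeq2 found 0 higher and 3 lower (12.8% of all genes were lower). Without the W89A library of time point 4 in cycle 3, the one in which 53 members were highest, 8 members were lower, again beside 12.8% of all genes. With time points by title order, 6 were higher (11.8% of all genes) and 0 lower. NSA2 held 8.79, 8.30 and 16.99 CPM in W89A and 19.6, 17.9 and 23.7 in WT (log2 fold change -0.83, SE 0.29, adjusted p = 0.0441, edgeR). Its groups did not overlap, and the call was lost in 12 of the 30 fits that left out 1 library. The median log2 fold change of the members was -0.07.

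At time point 5 the members rose from their minimum, to 2.70 times the level of time point 4 in WT and 3.93 times in W89A at the median. This rise was not tested, and no value over all genes was computed. At this time point 58 of 60 were nominally above WT, as were 3173 of all 6256 genes. The members move together, so these signs are not 58 separate observations. Only 2 members passed the test, and 5.07% of all genes passed in that direction. MAK21 held 92.7, 91.6 and 91.6 CPM against 44.6, 59.5 and 54.8 (1.74-fold, adjusted p = 0.0322, edgeR), and DBP6 36.7, 32.1 and 34.5 against 20.5, 29.9 and 18.6 (1.5-fold, adjusted p = 0.0388). Both groups were apart from WT in all libraries. Each call was lost in 5 of the 30 fits with 1 library left out, where adjusted p reached 0.139 for MAK21 and 0.164 for DBP6. The count was 0 without any library of time point 5 except the WT library of cycle 2, and 6 without the W89A library of time point 3 in cycle 3. The authors' deposited table called 29 members higher at this time point, and 9.5% of all its genes.

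At time point 1, as the members climbed towards their peak, 59 of 60 had a negative log2 fold change in W89A (median -0.42). Of all 6256 genes, 3051 had a positive one. Because the members move together, their signs are not separate observations. The test called 3 members lower, where 3.60% of all genes were. DESeq2 called 5 (6.63% of all genes). SQT1 held 220.4, 194.2 and 183.3 CPM in W89A and 403.8, 253.6 and 276.9 in WT (-0.64, SE 0.20, adjusted p = 0.0418, edgeR). NOP16 was 1.46-fold lower (120.1, 100.6 and 107.2 CPM against 173.7, 161.3 and 143.9, adjusted p = 0.0354, edgeR) and RPF1 1.44-fold lower (adjusted p = 0.0349). Their W89A libraries all lay below the WT ones. Without the WT library of cycle 1, the one in which 57 members were highest, adjusted p was 0.275 for SQT1, 0.151 for NOP16 and 0.169 for RPF1. The count of 3 was 0 or 1 without any library of time point 1 except the WT library of cycle 2, and 10 without the W89A library of time point 3 in cycle 3. The authors' deposited table called 36 members lower here, and 8.33% of all its genes. For time point 3 the authors' deposited table called 59 members higher, and 22.5% of all its genes.

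The climb from time point 1 to 2 had a median log2 change of 0.33 in WT, where 1 member passed, TIF6 (0.47, adjusted p = 0.0278, edgeR; 5.43% of all genes rose). In W89A it was 0.71, and 35 members passed (11.4% of all genes). That W89A count was 16, 5 and 9 without the W89A library of time point 1 in cycle 1, 2 or 3, 6 and 5 without that of time point 2 in cycle 1 or 2, and 57 without that of time point 3 in cycle 3. The WT count was 0 to 5 with 1 library left out. The strains' difference in this step was not tested.

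Averaged over the 5 time points, 40 members were higher in W89A (27.1% of all genes), at a median of 0.35. The average rested on time point 3: over the other 4 time points 0 were higher (21.8% of all genes) and 1, NSA1, was lower (-0.37, adjusted p = 0.0114, edgeR; 19.1% of all genes), at a median of -0.06. Across these 4 time points 9 members had an unadjusted p under 0.05, as did 49.1% of all genes. The spread used here still included the W89A library of time point 3 in cycle 3. This average was not refitted without that library, so few calls here do not show that the strains were alike. The test of whether the strain difference varied over the 5 time points passed for 59 members (41.9% of all genes), again all but RSA1 (adjusted p = 0.373, edgeR).

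Other genes of ribosome production are set beside the members by count. Of all genes, 28.2% were higher in W89A at time point 3, and 1430 of 6256 were lower. Of 34 further 60S maturation and export factors, 32 were higher in W89A at time point 3 (median 1.34). They include MTR4, the helicase of the nuclear exosome (2.05, SE 0.23), and LAS1, the nuclease that cuts the second internal spacer (0.90, SE 0.11). All 54 small subunit processome genes were higher (median 1.76), among them UTP25 (1.95, SE 0.21) and ENP2 (2.36, SE 0.25). Of 15 genes of RNA polymerase I and its initiation factors, 13 were higher (median 1.33), with the subunit genes RPA135 at 2.44 (SE 0.29) and RPA14 at 1.33 (SE 0.15). Of 10 regulators of ribosome gene transcription, 6 were higher and 1 lower (median 0.48). TOD6, whose product binds PAC, was higher by 1.98 (SE 0.29) and fell by 3.50 between time points 2 and 3 in WT and by 1.42 in W89A. RAP1 was higher by 0.67 (SE 0.12).

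The ribosomal protein genes of the same subunit were also higher at time point 3 in W89A, 72 of 81 (28.2% of all genes), at a median of 1.11. Between time points 2 and 3, 79 of the 81 fell in WT (31.1% of all genes, median -1.62). In W89A 6 fell (16.6% of all genes, median -0.17), where 59 of the 60 assembly genes fell. At time point 2 the ribosomal protein genes had a median log2 fold change of -0.37 in W89A against WT. From time point 2 to 3 in W89A their summed CPM fell from 96480 to 74600 in cycle 1 and from 112700 to 89290 in cycle 2. In cycle 3 it rose from 81370 to 104200, and the step was not refitted for these genes without that library. RPL16A changed by -1.96 in WT and -0.22 in W89A, and RPL11B by -1.82 and -0.37. Many of these genes exist as near-identical pairs whose reads may have been divided between copies. Whether the step differed between the ribosomal protein genes and the assembly genes was not tested.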

How the data were processed

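Libraries came from RNA of chemostat cells, per the labels' protocols. The deposited count table holds whole-number read counts per gene, made by the authors. Per the submitters' processing notes the build was mm9, which is of the mouse, while identifiers are those of yeast. The coordinates of all 60 members equalled yeast RefSeq R64, as did those of 5889 of 5898 genes in both sources. Aligner, counter and strand setting are not given in the sources used here. Comparison tables that the authors deposited hold log2 fold changes and p-values. They were used for symbols, time points and calls.

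All 30 libraries entered 1 edgeR 4.0.16 fit (R 4.3.3) with TMM, filterByExpr, robust quasi-likelihood and 10 group means, and p-values were 2-sided and adjusted (Benjamini-Hochberg) over 6256 genes with a threshold of 0.05. Genes without enough counts numbered 871, of which 333 had none. CPM used TMM library sizes; the heat map added 1 before log2. The scripts were tested on simulated data. DESeq2 1.42.0, other scalings, no filter, title order, a replicate block and leaving out each library were alternatives. The average without time point 3 was chosen after seeing the data. Cycle numbers pair libraries within a strain by the labels, as consecutive cycles. Same-cycle deviations over all genes correlated by medians of 0.00741 to 0.0625, and in W89A cycle 3 single pairs ran from -0.247 to 0.394. In that cycle the median member deviated by 0.79 on the log2 scale at time point 3 and by 0.55 at time point 4. Precision is limited by 3 libraries a group. Sequences are RefSeq R64 (Biopython 1.88 for alignment).

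Members and lists were chosen with earlier results of these data known. Named members are the most abundant of each role, the 4 largest and 4 smallest WT ranges, the 4 highest and 4 lowest fold changes at time point 3, up to 3 calls in each direction at other time points and in the average, and SSF1 and SSF2, which gave 25. Comparison lists name the 2 smallest p at time point 3. ERB1, LOC1, MAK11, NSA1 and RLP24 were named after their values were seen.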

Additional observations from a re-analysis of the deposited data

Results flagged for a closer look

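The strain difference was not the same at all time points for 59 of the 60 members (interaction over 5 time points, edgeR), as for 41.9% of all genes. For 59 it was larger at time point 3 than at 2, as for 19.1% of all genes. Among the named members, the strain difference at time point 3 minus that at time point 2, on the log2 scale, was DBP2 3.02, NOP7 2.48, RPF2 2.32, MDN1 2.24, DBP3 2.23, NOG1 2.18, MAK16 2.12, SPB1 2.10, NSA2 2.09, NOP2 2.06, RLP7 2.02, NOC2 1.93, SSF1 1.92, MAK21 1.83, NOG2 1.71, RSA4 1.65, RPF1 1.49, DBP10 1.44, NOP16 1.35, SQT1 1.24, TIF6 1.11, SPB4 0.97, DBP6 0.77 and SSF2 0.65. Each of these passed the test of that difference with all libraries (edgeR, adjusted p under 0.05). RSA1 is the member outside both counts. Without the W89A library of time point 3 in cycle 3, SSF2 (0.38), SPB4 (0.56) and DBP6 (0.44) did not pass either, and DBP2 came to 2.18.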

How the results depend on the processing

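Every alternative kept 58 to 60 members higher at time point 3, no named member's fold change at time point 3 changed sign, and scalings moved the median of all genes by at most 0.051 on the log2 scale. With time points by title order, 0 members were lower at time point 1, 6 higher and 0 lower at time point 4, 0 higher at time point 5 and 19 higher on average, and 0 rose from time point 1 to 2 in WT, 1 in W89A and 36 fell from 2 to 3 in W89A. By title order the common coefficient of variation between libraries of a group was 0.1995, against 0.1639 in the main fit. With both reassigned libraries left out, 0 members were lower at time point 4 and 0 higher at time point 5. At time point 4 the count of lower members was 2 with DESeq2 size factors, 0 without a filter, 2 with the replicate block of cycle within strain and 3 with the DESeq2 test, which called 5 lower at time point 1. The replicate block changed no other count by over 1.5 times. Without time point 3, 0 members were higher and 1 lower on average. For most of these counts, and of those with 1 library left out, the share of all genes called is not given. Whether the members gained or lost more calls than other genes was not tested. The causes were not tested.

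With 1 library left out, counts ranged from 0 to 10 lower at time point 1, 0 to 1 higher and 0 to 8 lower at time point 4, and 0 to 6 higher at time point 5; from 0 to 5 in the WT step and 5 to 57 in the W89A step from time point 1 to 2. The 10 at time point 1, the 6 at time point 5, the 57 and the 5 in WT were all without the W89A library of time point 3, cycle 3. The 8 were without that of time point 4, cycle 3. Depth was alike across libraries, and 3 cycles a group limit what could be called.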
